A study of Homo sapiens with 12 samples.

Results

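The transcription factors that set and keep the identity of intestinal epithelium were followed in Caco-2 spheroids exposed to methotrexate, lactoferrin or both. The 9 genes were chosen by symbol from the table of 48162 genes: CDX1, CDX2, HNF4A, HNF4G, GATA4, GATA6, KLF5, ELF3 and ISX. Each symbol matched 1 row. Caco-2 is a human colorectal carcinoma line whose cells take on features of small intestinal enterocytes. The cells, at passage 26, were suspended in Matrigel and grown for 5 days in medium with 20% serum, and were then exposed for 4 h. The 4 groups were carrier fluid (control), methotrexate, lactoferrin, and methotrexate with lactoferrin, with 3 bulk RNA libraries in each. Doses are not given in the labels. All libraries come from 1 carcinoma line, and the labels do not say whether the 3 libraries of a group were separate cultures, so that p-values measure only the spread between these libraries.

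The CDX proteins are homeodomain factors that pattern the hindgut and hold the intestinal programme in the adult. HNF4A and HNF4G are nuclear receptors that activate genes of lipid handling and of the brush border, the absorptive surface of the enterocyte. Of the GATA zinc finger factors, GATA4 separates proximal from distal small intestine, while GATA6 is found along the whole intestine. KLF5 and ELF3 act in crypt proliferation and in epithelial differentiation. ISX, itself controlled by CDX2 and by retinoic acid, restrains vitamin A uptake. Many enterocyte promoters are bound by several of these proteins at once.

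The methotrexate libraries stood apart from the other 9. They held 47459811 to 60591667 counts against 18714054 to 23859094, and mitochondrially encoded genes took 6.67% to 7.54% of their counts against 2% to 3.34%. Levels below are CPM, counts scaled to library size, with TMM factors that adjust for library composition. The summed level of 45 epithelial genes such as EPCAM and CDH1 was 6068 to 6989 CPM in the methotrexate libraries and 12160 to 13820 CPM in the others. The summed level of 20 adipocyte genes was 25010 to 26070 CPM with methotrexate, with 19 of the 20 detected in each library and ADRB3 at 0. The same 20 genes summed to 501.6 to 623.9 CPM elsewhere, where TUSC5 and ADRB3 were at 0 in every library. ADIPOQ, the adipocyte hormone adiponectin, was at 1496, 1584 and 1592 CPM with methotrexate and at 0.24, 0 and 0 CPM in control. A list of 20 fibroblast genes summed to 24970 to 27550 CPM with methotrexate and 6646 to 8650 CPM elsewhere, and COL15A1, DPT and MFAP5 were at 0 throughout the controls. Adipocyte and fibroblast genes, which an epithelial line is not labelled to supply, were thus high in every methotrexate library. Their part in the results on that group was not tested, and depth, mitochondrial share and these transcripts cannot be told apart from the methotrexate group. In bulk RNA, fewer cells of a type and less RNA per cell cannot be told apart either.

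Methotrexate replicate 3 also differed from the other 2 libraries of its group. Among 7797 genes averaging at least 20 CPM, 67 were over 2-fold lower and 4 over 2-fold higher in it than in both of them, or 0.911% of these genes, against 0% to 0.244% for each of the other 11 libraries. Of the 6 transcription factors at that level, 4 were among these genes. For the comparisons that use the methotrexate group, the factors' TMM-scale fold changes and the counts are therefore also given without that library. Fold changes of single genes from other lists are given only with all methotrexate libraries.

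In untreated spheroids HNF4A was the most abundant of the 9 per length of transcript. Its level was 212 ± 12.8 CPM per kilobase (SD, n = 3), followed by KLF5 at 98.0 ± 5.997. CDX2 was at 62.4 ± 2.89 and GATA6 at 51.8 ± 9.42 CPM per kilobase. Their control libraries did not overlap, at 60.1 to 65.7 for CDX2 and 41.2 to 59.1 for GATA6. ISX at 11.6 ± 0.454 and ELF3 at 11.5 ± 0.342 did not differ beyond their spread, nor did GATA4 at 3.00 ± 0.445 and HNF4G at 2.82 ± 0.781. Each pair of relatives was thus unequal in control: HNF4A stood far above HNF4G and GATA6 far above GATA4.

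**Figure D1:**
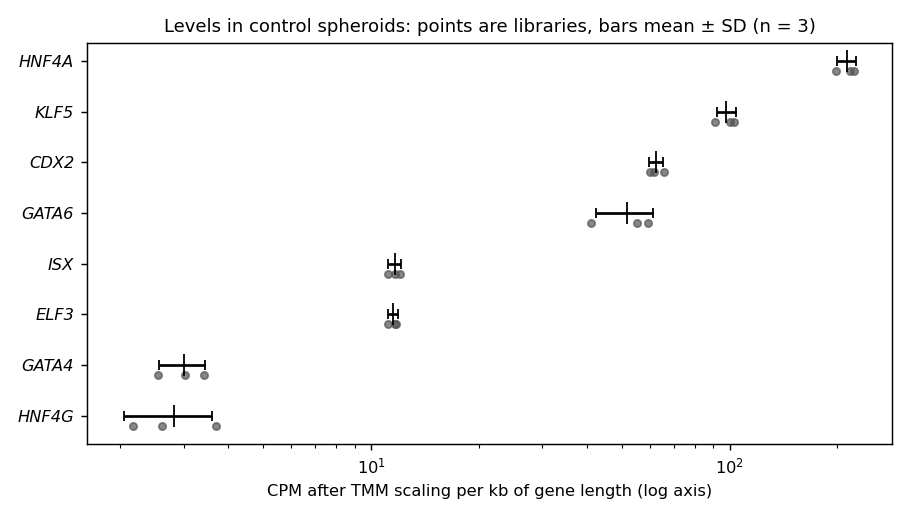
Level of each transcription factor in the 3 control libraries, in TMM-scaled CPM per kilobase of gene model on a log axis. Points are libraries and bars are mean ± SD; CDX1 is left out; HNF4A is highest at 212 and GATA4 and HNF4G lowest near 3.

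CDX1 was hardly detected. It gave 10 counts over all 12 libraries: 2, 1 and 0 in control, 2, 0 and 0 with methotrexate, 4, 0 and 0 with lactoferrin, and 0, 1 and 0 with both. At these depths 3 counts equal 0.0495 to 0.16 CPM, a limit that covers counting error only. CDX1 did not enter the tests, which therefore cover 8 of the 9 genes, and no change in it was detectable at this depth.

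**Figure D2:**
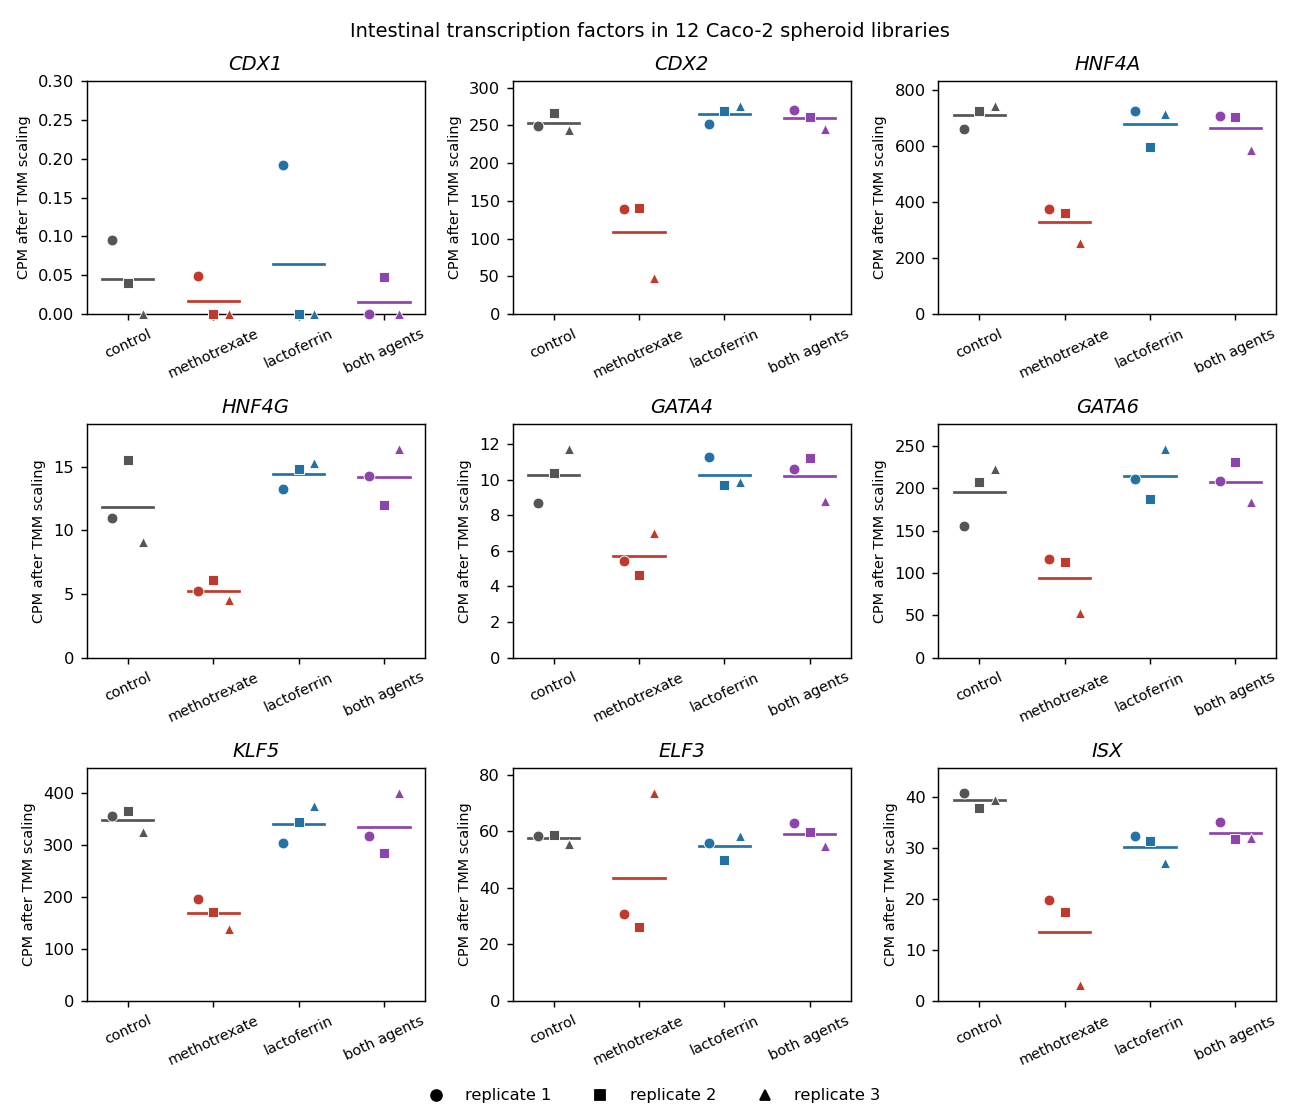
TMM-scaled CPM of the 9 transcription factors in each of the 12 libraries on linear axes from 0, 1 panel per gene, grouped by exposure; symbols give the replicate and lines the group means. In 7 panels the 3 methotrexate libraries lie below all others; in the ELF3 panel methotrexate replicate 3 lies above the rest.

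Methotrexate against control was tested in edgeR by quasi-likelihood, and p-values were adjusted over 16733 genes by Benjamini-Hochberg and called under 0.05. On the TMM scale 7 of the 8 tested factors fell and ELF3 was not called. The background was wide: 64.5% of all tested genes were called, 29.1% lower and 35.4% higher. The median log2 fold change was -1.08 over the 8 factors and 0.03 over all tested genes. For the same 7 factors the 3 methotrexate libraries lay below the 3 controls with no overlap, a pattern held by 32.9% of tested genes, while 38.6% lay above without overlap.

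CDX2 (ENSG00000165556, hg19 chr13:28536274-28545276, minus strand), the caudal factor that specifies intestine, was at 249, 266 and 244 CPM in control and at 139, 141 and 47.4 CPM with methotrexate. All 3 methotrexate libraries were lower, and replicate 3 lay far below the other 2. Its log2 fold change was -1.21 ± 0.26 (SE, edgeR adjusted p = 0.00073), and -0.85 without methotrexate replicate 3.

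HNF4A (ENSG00000101076, hg19 chr20:42984340-43060030, plus strand), which drives enterocyte lipid and brush border genes, was at 661, 724 and 742 CPM in control and at 373, 361 and 255 CPM with methotrexate. The groups did not overlap. HNF4A fell by 1.10 ± 0.13 on the log2 scale (SE, edgeR adjusted p = 2.47e-06), and its log2 fold change was -0.95 without methotrexate replicate 3. HNF4G (ENSG00000164749, hg19 chr8:76320149-76479078, plus strand), its paralog, was at 10.98, 15.5 and 9.13 CPM in control and at 5.20, 6.11 and 4.51 CPM with methotrexate. Here the 3 methotrexate libraries lay close together while the controls spread more. HNF4G had a log2 fold change of -1.17 ± 0.19 (SE, edgeR adjusted p = 4.96e-05), and -1.07 without replicate 3.

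GATA6 (ENSG00000141448, hg19 chr18:19749404-19782491, plus strand), the GATA factor found along the whole intestine, was at 155, 208 and 223 CPM in control and at 117, 113 and 52.5 CPM with methotrexate. As for CDX2, replicate 3 was lowest. GATA6 had a log2 fold change of -1.06 ± 0.23 (SE, edgeR adjusted p = 0.000725), and -0.77 without that library. GATA4 (ENSG00000136574, hg19 chr8:11534468-11617511, plus strand), which marks the proximal small intestine, was at 8.68, 10.4 and 11.7 CPM in control and at 5.42, 4.62 and 7.01 CPM with methotrexate. In contrast to GATA6, methotrexate replicate 3 was the highest of the group. GATA4 had a log2 fold change of -0.85 ± 0.17 (SE, edgeR adjusted p = 0.000395), and -1.03 without it.

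KLF5 (ENSG00000102554, hg19 chr13:73629114-73651676, plus strand), a factor of dividing crypt cells, was at 356, 366 and 325 CPM in control and at 196, 172 and 138 CPM with methotrexate. The groups did not overlap, and its log2 fold change was -1.05 ± 0.14 (SE, edgeR adjusted p = 7.09e-06), and -0.92 without replicate 3. ELF3 (ENSG00000163435, hg19 chr1:201977073-201986316, plus strand), an ETS factor of epithelial differentiation, was at 58.3, 58.8 and 55.6 CPM in control and at 30.7, 25.97 and 73.7 CPM with methotrexate. Replicates 1 and 2 were below every control and replicate 3 above every control. ELF3 had a log2 fold change of -0.40 ± 0.26 (SE, 95% interval -0.96 to 0.15, edgeR adjusted p = 0.188). Without methotrexate replicate 3 the value was -1.02 (edgeR adjusted p = 1.47e-06), so that all 8 tested factors were then lower, beside 59.9% of all tested genes called and 26.4% called lower.

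ISX (ENSG00000175329, hg19 chr22:35462129-35483380, plus strand), the intestine-specific homeobox repressor of vitamin A uptake, was at 40.9, 37.8 and 39.5 CPM in control and at 19.7, 17.5 and 3.12 CPM with methotrexate. Replicate 3 held 157 ISX counts against 799 and 900 in the other 2. ISX had a log2 fold change of -1.56 ± 0.39 (SE, edgeR adjusted p = 0.00235), and -1.09 without that library.

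**Figure D3:**
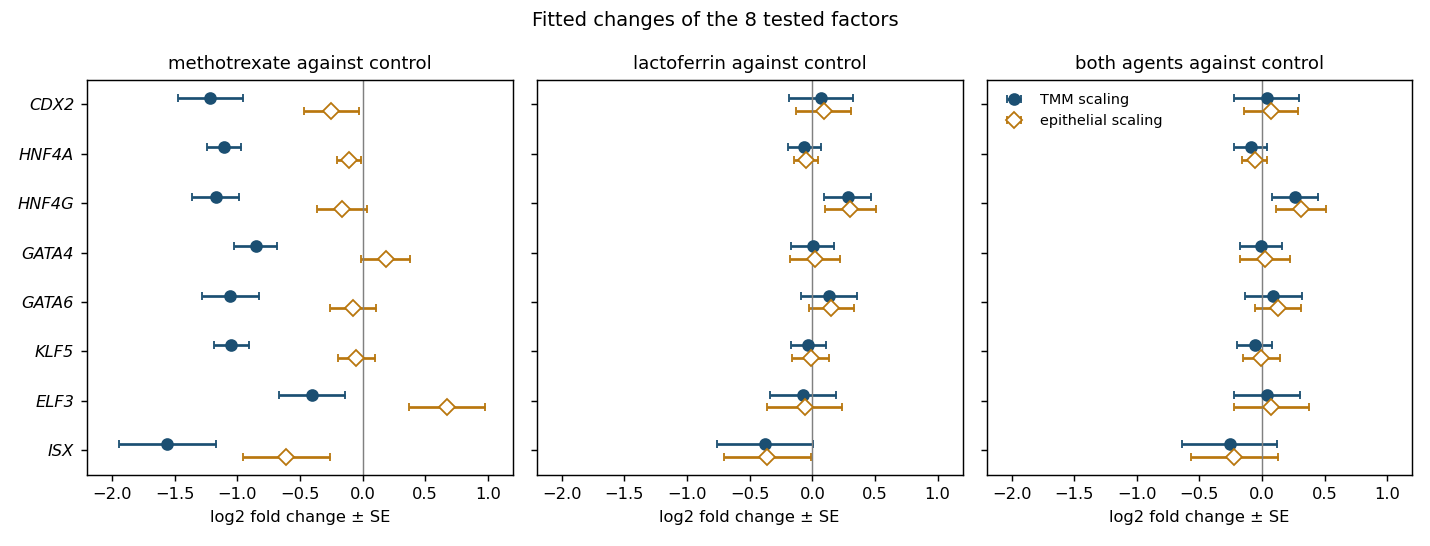
Log2 fold change ± SE of the 8 tested factors against control, 1 panel per exposure, with TMM scaling (filled circles) and epithelial scaling (open diamonds). With methotrexate the TMM values run from -1.56 for ISX to -0.40 for ELF3 and the epithelial-scaled ones from -0.61 to 0.67; the other 2 panels lie between -0.38 and 0.31.

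Promoter sequences are shown as context for ISX, the factor with the largest fall on the TMM scale, and HNF4A, the most abundant one. Any link between these sequences and the changes was not tested. They are the 250 bases before annotated starts (RefSeq, GRCh38.p14), 5′ to 3′ on the gene's strand. RefSeq windows matched 6 of the 9 factors. HNF4A has a distal (P2) and a proximal (P1) promoter. Capitals mark matches to the motifs searched on both strands.

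ISX, chr22:35065908-35066157 (+): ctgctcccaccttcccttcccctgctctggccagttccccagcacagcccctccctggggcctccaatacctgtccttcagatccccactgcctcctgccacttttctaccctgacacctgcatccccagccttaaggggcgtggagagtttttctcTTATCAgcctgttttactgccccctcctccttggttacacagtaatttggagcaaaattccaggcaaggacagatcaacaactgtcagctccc
HNF4A distal, chr20:44355449-44355698 (+): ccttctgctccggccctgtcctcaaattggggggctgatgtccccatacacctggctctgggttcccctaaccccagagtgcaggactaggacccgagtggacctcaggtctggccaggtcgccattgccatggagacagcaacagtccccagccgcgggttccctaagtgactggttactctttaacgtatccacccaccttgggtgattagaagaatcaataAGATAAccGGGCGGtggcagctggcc
HNF4A proximal, chr20:44400989-44401238 (+): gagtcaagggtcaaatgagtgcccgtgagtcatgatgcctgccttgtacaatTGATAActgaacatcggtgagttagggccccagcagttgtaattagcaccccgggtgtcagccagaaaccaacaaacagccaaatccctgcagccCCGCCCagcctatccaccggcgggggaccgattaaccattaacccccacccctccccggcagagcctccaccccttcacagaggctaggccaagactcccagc

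The ISX window holds the GATA-type word TGATAA on the opposite strand, 93 bases before the start. The distal HNF4A window holds the GATA-type word AGATAA 26 bases and the GC box GGGCGG 18 bases before the start. The proximal window holds TGATAA 198 bases before the start and GGGCGG on the opposite strand 103 bases before it. Of 35116 RefSeq promoter windows of this length, 6.66% hold TGATAA, 9.17% AGATAA and 42.6% GGGCGG. The other words searched were the CDX-type TTTAT (32.7% of windows), the forkhead-type TGTTTAC (2.98%), the HNF4-type CAAAGTCCA (0.325%), the ETS-type CCGGAA (14.5%) and the TATA box TATAAA (10.7%), whose opposite strand contains TTTAT. None of these 5 is in the 3 windows shown, which says only that these letters are not there.

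Scaling on epithelial genes asked how the factors stood relative to other epithelial transcripts. Each library was scaled on the median ratio of the 45 epithelial genes, which moved the median over all tested genes from 0.03 to 1.04 log2 units. On that scale 0 of the 8 factors were called in edgeR, and 1 of them, ELF3, had an unadjusted p under 0.05. Without methotrexate replicate 3 both counts were 0, beside 75.1% of all tested genes called and 0.189% called lower. Among all genes 78.5% were called, 78.3% higher and 0.245% lower. DESeq2 and limma-voom were not run on this scale. Values were -0.11 ± 0.10 (SE) for HNF4A, -0.05 ± 0.15 for KLF5, -0.16 ± 0.20 for HNF4G, -0.08 ± 0.18 for GATA6 and 0.18 ± 0.20 for GATA4. CDX2 was at -0.25 ± 0.22 (edgeR adjusted p = 0.309), ISX at -0.61 ± 0.35 (edgeR adjusted p = 0.118) and ELF3 at 0.67 ± 0.30 (edgeR adjusted p = 0.0504). The fall of these factors on the TMM scale was thus about that of the epithelial reference, whose median log2 fold change was -1.03 with all 45 genes lower.

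The 3 methotrexate libraries differed on the epithelial scale. ISX lay at -0.12, -0.22 and -2.47 (log2, relative to the control mean) in replicates 1 to 3. CDX2 lay at 0.02, 0.12 and -1.22, and GATA6 at 0.16, 0.18 and -0.68. ELF3 went the other way, at -0.02, -0.19 and 1.55. In replicates 1 and 2 these 4 genes were within 0.22 of the control mean, and replicate 3 held the departures. HNF4A, at -0.04, -0.02 and -0.28, and KLF5, at 0.05, -0.06 and -0.14, departed less. GATA4 lay at -0.02, -0.18 and 0.66, higher in replicate 3, and HNF4G at -0.27, 0.03 and -0.17, with replicate 3 between the others.

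**Figure D4:**
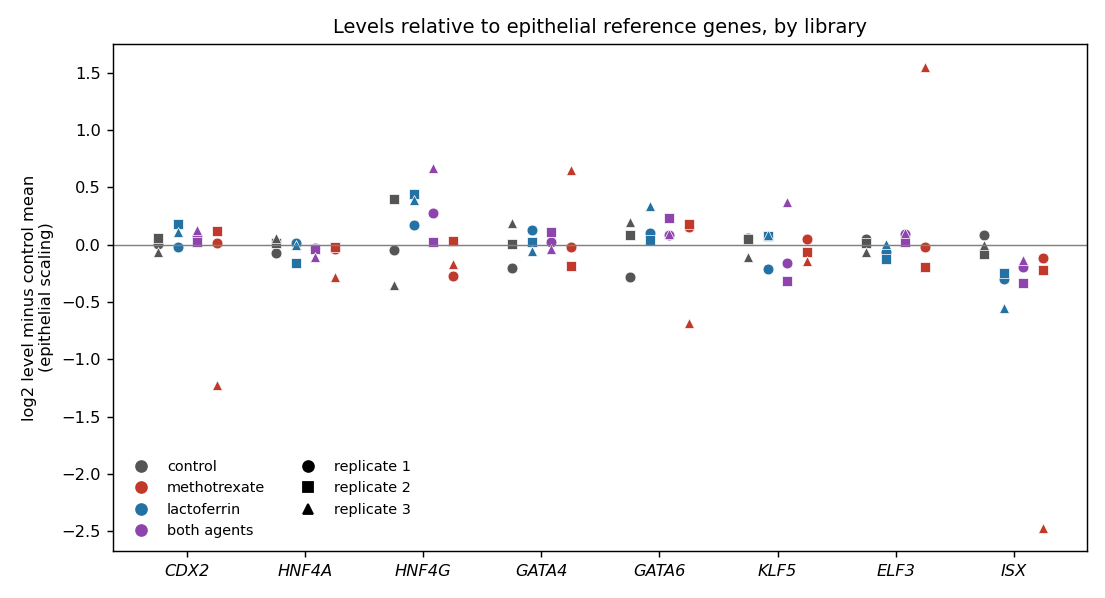
Log2 level of each tested factor relative to its control mean after scaling on 45 epithelial genes, 1 point per library, with colour for the group and shape for the replicate. Methotrexate replicates 1 and 2 lie near 0, while replicate 3 reaches -2.47 for ISX, -1.22 for CDX2 and 1.55 for ELF3.

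The departure of methotrexate replicate 3 was measured as its log2 CPM minus the mean of replicates 1 and 2, over the 7797 genes. All genes had a median of -0.06 and a 5th to 95th percentile range of -0.57 to 0.31. ISX, at -2.55, was the lowest of all 7797 genes. CDX2, at -1.56, ranked 14 from the lowest and GATA6, at -1.13, ranked 51. ELF3, at 1.38, was the 4th highest. These 4 factors thus lay in the outer tails of the distribution, in which 77 genes were below -1 and 6 above 1.

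Other gut transcription factors shared that tail. FOXA1, a forkhead pioneer factor, was at -2.48 and ranked 2, and its levels were 171, 170 and 30.4 CPM in the 3 methotrexate libraries. Its control levels were 282, 335 and 358 CPM, so that replicate 3 lay far below all 5 other libraries of these groups. ASCL2, a factor of intestinal stem cells, was at -2.12 and ranked 6. FOXA1 was singled out here after its values were seen. The median offset was -0.38 over 27 other gut transcription factors and 0.004 over 26 known target genes, none of which lay beyond 1 in either direction. It was -0.04 over 15 adipocyte genes, -0.09 over 15 fibroblast genes and -0.25 over 44 epithelial genes, all within the range that holds most genes.

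**Figure D5:**
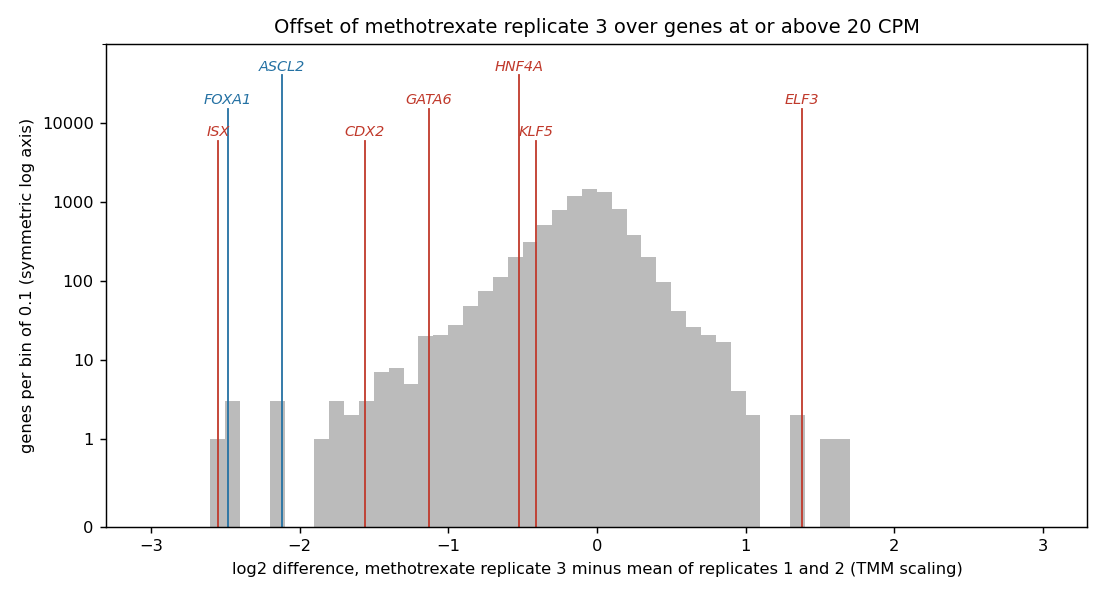
Distribution over 7797 genes of log2 CPM in methotrexate replicate 3 minus the mean of replicates 1 and 2, as genes per bin of 0.1 on a symmetric log axis; lines mark named genes. ISX (-2.55), CDX2 (-1.56) and GATA6 (-1.13) lie in the lower tail and ELF3 (1.38) in the upper tail.

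Lactoferrin alone left every tested factor uncalled. In lactoferrin against control 0 of the 8 were called in edgeR, beside 0% of all tested genes; 0 of the 8 had an unadjusted p under 0.05, beside 628 of all genes, and DESeq2 and limma-voom called 0 genes each. HNF4A was at 723, 597 and 714 CPM with lactoferrin, and CDX2 at 252, 269 and 276 CPM, both overlapping control. HNF4G was at 13.2, 14.8 and 15.3 CPM and GATA4 at 11.3, 9.73 and 9.89 CPM, again within or across the control range. GATA6 was at 211, 187 and 246 CPM, KLF5 at 304, 346 and 375 CPM and ELF3 at 55.7, 49.7 and 58.4 CPM. None of these 7 factors separated the groups. The 95% interval of the log2 fold change was -0.34 to 0.22 for HNF4A and -0.47 to 0.62 for CDX2. SEs, intervals and p-values here use 1 spread per gene over all 12 libraries, methotrexate replicate 3 included. For CDX2 the SD was 4.6% of the mean in control, 4.6% with lactoferrin and 49% with methotrexate. For ISX it was 3.9%, 9.2% and 67%. The intervals and p-values of such genes thus do not measure the spread of the compared groups alone. ISX was the one factor whose libraries did not overlap, at 32.5, 31.3 and 27.1 CPM against 37.8 to 40.9 CPM in control, a pattern held by 4.91% of tested genes, with 5.18% in the higher direction. Its log2 fold change was -0.38 ± 0.38 (SE, edgeR adjusted p = 1, 95% interval -1.19 to 0.43).

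Both agents together also left every tested factor uncalled against control. In edgeR 0 of the 8 factors were called, beside 0.0299% of all tested genes, which are VIM, LGALS1, AKAP12, FBN2 and MSN, named because they are all the calls; 0 of the 8 factors had an unadjusted p under 0.05, beside 3.53% of all genes. DESeq2 called 15 genes and limma-voom 0, none of them a factor. HNF4G was at 14.3, 11.99 and 16.4 CPM, with a log2 fold change of 0.26 ± 0.18 (SE, 95% interval -0.13 to 0.65). KLF5 was at 319, 285 and 401 CPM and GATA6 at 209, 232 and 183 CPM, overlapping control. HNF4A was at 708, 702 and 586 CPM, GATA4 at 10.6, 11.2 and 8.81 CPM and ELF3 at 62.7, 59.7 and 54.9 CPM, and these groups overlapped too. ISX was again below control without overlap, at 35.2, 31.8 and 31.9 CPM, as were 3.65% of tested genes, with 4.19% above. Its log2 fold change was -0.26 ± 0.38 (SE, 95% interval -1.06 to 0.55). The spread behind this interval again includes methotrexate replicate 3. The 2 comparisons share the control libraries.

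Both agents against methotrexate alone separated 7 factors. In edgeR 7 of the 8 were higher with both agents, beside 63.2% of tested genes called 28.8% higher and 34.4% lower. Their libraries did not overlap for the same 7, as for 30.2% of tested genes in the higher and 36.3% in the lower direction. CDX2 was at 269.9, 262 and 246 CPM with both agents, all above the methotrexate libraries, and had a log2 fold change of 1.25 ± 0.26 (SE, edgeR adjusted p = 0.000593). HNF4G had the largest value, 1.43 ± 0.19 (SE, edgeR adjusted p = 6.39e-06), and ISX was at 1.30 ± 0.39 (edgeR adjusted p = 0.0081). Without methotrexate replicate 3 ISX dropped to 0.83, CDX2 to 0.89 and HNF4G to 1.33, all still called. HNF4A, GATA6, KLF5 and GATA4 lay between 0.84 and 1.15, and without that library at 0.86, 0.86, 0.86 and 1.02. ELF3 was not called at 0.44 ± 0.26 (SE, edgeR adjusted p = 0.152), and was called at 1.06 without methotrexate replicate 3 and at 0.41 without the filter on low counts (edgeR adjusted p = 0.00379). On the epithelial scale 1 of the 8 was called, HNF4G at 0.47 (edgeR adjusted p = 0.0425), beside 0.371% of tested genes called higher and 76.4% lower. Without methotrexate replicate 3, 8 of the 8 were called on the TMM scale, beside 58.9% of all genes, and 0 on the epithelial scale, beside 72.9%. HNF4G was then at 0.45 on the epithelial scale (edgeR adjusted p = 0.0818), and 0 of the 8 had an unadjusted p under 0.05.

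Both agents against lactoferrin alone showed 0 of the 8 factors called in edgeR, beside 0.0179% of all tested genes, namely VIM, LGALS1 and MSN. None of the 8 had an unadjusted p under 0.05, beside 3.37% of all genes, and neither DESeq2, which called 7 genes, nor limma-voom, which called 0, called a factor. The factors' log2 fold changes ran from -0.05 for GATA6 to 0.12 for ISX. No factor's libraries were free of overlap between these groups, beside 3.22% of tested genes lower and 3.67% higher without overlap. The widest 95% interval was that of ISX, -0.69 to 0.93, and its spread too includes methotrexate replicate 3.

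The effect of methotrexate with lactoferrin minus its effect without was tested as an interaction. In edgeR 7 of the 8 factors were called higher, beside 46.7% of tested genes called and 20.6% called higher. ISX had the largest value at 1.68 ± 0.54 (SE, edgeR adjusted p = 0.0191) and GATA4 the smallest called one at 0.84 ± 0.24 (edgeR adjusted p = 0.0102). ELF3 was at 0.52 ± 0.37 (edgeR adjusted p = 0.27), and at 0.49 without the filter on low counts, where it was called (edgeR adjusted p = 0.0282). On the epithelial scale 0 of the 8 were called and 0 had an unadjusted p under 0.05, beside 67.2% of tested genes called, 67% lower and 0.173% higher. Without methotrexate replicate 3 the value was 1.21 for ISX, 1.02 for GATA4 and 1.14 for ELF3. In that setting 8 were called on the TMM scale, beside 44% of all genes, and 0 on the epithelial scale, beside 64.3%. This contrast rests on the same methotrexate libraries as the comparisons above and is not separate evidence.

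Ratios of relatives within a library do not depend on scaling. GATA6 to GATA4 counts stood at 17.9, 20.1 and 19.04 in control, 18.7, 19.3 and 24.9 with lactoferrin, and 19.8, 20.7 and 20.8 with both. With methotrexate they were 21.5, 24.4 and 7.50, so that replicate 3 was far below the other 11 libraries. An exact two-sided permutation test over the 4 groups gave p = 0.955. The mean log2 ratio with methotrexate minus that in control was -0.26, and 0.27 without replicate 3. In that setting the exact permutation test over the 4 groups gave an adjusted p = 0.721, which does not test this difference alone. HNF4G to HNF4A stood at 0.0166, 0.0214 and 0.0123 in control and at 0.0139, 0.0169 and 0.0177 with methotrexate. It was 0.0183, 0.0249 and 0.0215 with lactoferrin, and 0.0202, 0.0171 and 0.0280 with both. The exact permutation test over the 4 groups gave p = 0.252, which does not compare methotrexate with control alone. The mean log2 ratio of HNF4G to HNF4A with methotrexate minus that in control was -0.02. CDX1 to CDX2, which rests on 10 CDX1 counts, gave an exact permutation p = 0.913 over the 4 groups. Over 6 such tests, which include the 3 groups other than methotrexate, every adjusted p was 0.955. ELF3 to CDX2 was chosen after its values were seen and was not tested: it was 0.221 to 0.234 in control, 0.222 and 0.184 in methotrexate replicates 1 and 2, and 1.55 in replicate 3.

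The other gut transcription factors moved in both directions. Of 47 in a list drawn up with earlier results known, 46 were tested, and with methotrexate 24 were lower, 6 higher and 16 not called in edgeR, with a median log2 fold change of -0.82. Among the largest rises were those of MLXIPL, the carbohydrate response factor (3.28 ± 0.14, SE), and KLF6 (2.24 ± 0.14). Among those whose log2 CPM averaged 1 or more, the largest falls included those of EHF, an ETS relative of ELF3 (-1.46 ± 0.22), and ASCL2 (-1.44 ± 0.35). ASCL2 was at 30.15, 29.17 and 6.75 CPM in methotrexate replicates 1 to 3. On the epithelial scale 18 of the 46 were called higher and 1 lower, with a median of 0.18. Of all tested genes 78.3% were called higher and 0.245% lower on that scale. With methotrexate replicate 3 left out, 29 were lower and 6 higher on the TMM scale, with a median of -0.77. On the epithelial scale 1 was then lower and 15 higher, with a median of 0.16, beside 0.189% of all genes lower and 74.9% higher. None of the 46 was called in either comparison with lactoferrin against control or in both agents against lactoferrin.

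Known targets of the 9 factors had a median near that of the epithelial reference. Of 47 in the list 42 were tested, and with methotrexate 35 were lower, 3 higher and 4 not called in edgeR, with a median log2 fold change of -1.04. The 3 that rose were PCK1 (5.13 ± 0.19, SE), a gluconeogenic enzyme that is also in the adipocyte list, ANPEP, the brush border aminopeptidase N (1.123 ± 0.12), and MYO7B, a microvillus myosin (0.56 ± 0.18). Among targets whose log2 CPM averaged 1 or more, the largest falls were those of KRT20, a keratin of mature enterocytes (-1.34 ± 0.36), APOB, the chylomicron apolipoprotein (-1.33 ± 0.16), and LGALS4, an intestinal galectin (-1.26 ± 0.21). On the epithelial scale 6 were called higher and 0 lower, with a median of -0.03. Of all tested genes 78.3% were called higher and 0.245% lower on that scale. Leaving out methotrexate replicate 3 gave 33 lower and 3 higher on the TMM scale, with a median of -1.03. On the epithelial scale that setting gave 1 lower and 5 higher, with a median of -0.10, beside 0.189% of all genes lower and 74.9% higher. None of the 42 was called in lactoferrin or both agents against control.

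Genes with the nearest profiles were sought among 12151 protein-coding genes, as the root mean square log2 difference over the 12 libraries after setting each gene to its control mean. Methotrexate replicate 3 is among the 12, and the distances were not computed without it. HNF4A lay nearest to MCM2, a replication helicase subunit (0.05), MEX3A (0.06) and ETV4 (0.06), against a median of 0.60 over all genes. KLF5 lay nearest to PARD6B (0.10), which is also in the epithelial reference, and GATA6 to CAMSAP3 (0.08). CDX2 lay nearest to SOX30 (0.12) and ELF3 to IRF8 (0.14). GATA4 lay nearest to NOS2 (0.10) and HNF4G to CATSPERB (0.17). ISX had the least close neighbours: HTR1D (0.28), FOXA1 (0.29) and FAM101A (0.31), against a median of 1.17.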

How the data were processed

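The deposited table holds whole-number counts per gene for 12 libraries. Per the submitters' processing notes, CASAVA, STAR and DESeq2 were used with hg19; their versions and roles, the annotation, the counting program and strandedness were not stated in the labels or the table. Reads of an antisense gene that overlaps a member, such as HNF4A-AS1, cannot be told apart from its own. The members and gene lists were chosen with earlier results of these data known.

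The count model was fitted with edgeR 4.0.16 under R 4.3.3: filterByExpr on the 4 groups kept 16733 genes, libraries were scaled with TMM (factors 0.852 to 0.884 with methotrexate, 1.01 to 1.08 otherwise), and 1 mean per group was fitted to all 12 libraries with the quasi-likelihood F test for 6 contrasts, Benjamini-Hochberg adjusted. SE is the log2 fold change divided by the square root of F. Scripts were tested on simulated data. Alternatives included DESeq2 1.42.0, limma-voom (limma 3.58.1), RLE, no filter, the submitters' threshold, epithelial scaling, a replicate block, and leaving out libraries. Library totals were 18714054 to 60591667, and the limit from 3 counts covers counting error only. The 95% intervals of fold changes come from the edgeR fit and include the spread over all 12 libraries, whichever groups are compared.

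Named genes are the 9 members, the 3 called list genes with the largest rise and fall in methotrexate and in both agents against control (average log2 CPM of at least 1), and the 3 nearest profiles of each tested member. Some genes that the rule takes are not reported here. Other genes named are markers from the lists, all genes called where 5 or fewer were, and genes said to be chosen after their values were seen. Promoters came from RefSeq (GRCh38.p14), used only for sequence. The build of the table is hg19.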

Additional observations from a re-analysis of the deposited data

Results flagged for a closer look

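The difference between the methotrexate effect with and without lactoferrin passed the edgeR quasi-likelihood test (Benjamini-Hochberg adjusted) on the TMM scale for 7 of the 8 tested factors, beside 46.7% of all tested genes called and 20.6% called higher. It was 1.68 log2 units for ISX, 1.18 for CDX2, 1.15 for HNF4G, 1.08 for HNF4A, 1.02 for KLF5, 1.01 for GATA6 and 0.84 for GATA4. On the epithelial scale 0 of the 8 passed, beside 67.2% of all tested genes. Dixon's test for an outlying library was not applied, since groups hold 3 libraries. All 7 use the methotrexate libraries, whose adipocyte and fibroblast transcripts are given above; their part in the result was not tested.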

How the results depend on the processing

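Each factor's value was recomputed under 20 to 21 alternatives per comparison, 1000 values in all, and 945 kept their side of the threshold. These include all 504 of the comparisons of lactoferrin or both agents with control and of both agents with lactoferrin. Of the 945, 33 uncalled values changed sign, 30 of them in those comparisons and 3 for ELF3 on the epithelial scale (0.67 for methotrexate against control, -0.60 for both agents against methotrexate, -0.54 for the interaction). Epithelial scaling changed the others most: the factors called went from 7 to 0 for methotrexate against control, from 7 to 1 for both agents against methotrexate and from 7 to 0 for the interaction. With methotrexate replicate 3 also left out, a setting chosen after seeing the data, 0 were called in each. The submitters' rule of over 2-fold and an adjusted p under 0.01 left 3 for the interaction. Leaving out 1 library at a time gave 7 to 8 called in these 3 comparisons, the 8 without methotrexate replicate 3, and 0 to 0 in the other 3.

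Directions reversed on the epithelial scale for GATA4 (0.18 for methotrexate against control, -0.16 for both agents against methotrexate, -0.18 for the interaction). With methotrexate replicate 3 also left out, methotrexate against control gave CDX2 0.0838, GATA6 0.17 and KLF5 0.0104, both agents against methotrexate gave HNF4A -0.0294, GATA6 -0.0285, KLF5 -0.00057 and ISX -0.0518, and the interaction gave CDX2 -0.0903 and GATA6 -0.19. The cause was not tested. ELF3 was called without the filter for methotrexate against control (-0.37, edgeR adjusted p = 0.00986), both agents against methotrexate (0.41) and the interaction (0.49). ISX lost its interaction call in DESeq2 (adjusted p = 0.0585).

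Over all genes the submitters' rule called 4525, 4400 and 3296 genes for methotrexate against control, both agents against methotrexate and the interaction. Lactoferrin against control gave 17 without the filter. Both agents against control gave 15 in DESeq2, 0 in limma-voom, 38 without the filter, 2 under the submitters' rule, 0 with the compared groups alone, 0 without the methotrexate libraries and 0 to 8 with 1 library left out. Both agents against lactoferrin gave 7, 0, 19, 0, 0 and 0 to 5 for DESeq2, limma-voom, no filter, groups alone, no methotrexate libraries and 1 library left out.

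Replicate numbers did not pair the libraries: correlations of same-numbered libraries ran from -0.216 to 0.118 over 18 pairs, and 3 of 12 libraries correlated best with their own number. With the replicate block the factors called stayed at 7, 0, 0, 7, 0 and 7 over the 6 comparisons, and both agents against control gave 3 genes. Depth limits CDX1 to a detection statement.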
